A study of Arabidopsis thaliana with 58 samples.

Results

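Cytosines outside the CG context were examined in the tandem repeat of *FWA*, a homeobox gene of *Arabidopsis thaliana* that is silenced in wild-type leaves by DNA methylation of this repeat. The repeat lies on chromosome 4 of TAIR10, in the promoter and 5′ untranslated region, and its copies are called here the upstream copy (13038356 to 13038499, 144 bp) and the downstream copy (13038568 to 13038695, 128 bp). The members are the CHG and CHH cytosines (H is A, C or T) on the minus strand of the copies with at least 10 reads in each library. These were 41 cytosines, 3 in CHG and 38 in CHH context, of 101 cytosines of any context and position that passed the same minimum in all libraries. The upstream copy held 23 of them and the downstream copy 18.

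In plants, CG methylation is copied by the methyltransferase MET1, CHG methylation is maintained mainly by CMT3, and CHH methylation is set by DRM2, which small RNAs guide in the pathway of RNA-directed DNA methylation, or by CMT2. The enzyme CMT2 is known to favour CAA and CTA over other CHH triplets. ROS1, DML2 and DML3 are DNA glycosylases that excise methylated cytosines in each context, and the FWA repeat is a classic target of RNA-directed DNA methylation.

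Methylation was measured in leaves by BS-PCR-seq: bisulfite turns cytosines that carry no methyl group into bases read as T, and amplicons of the repeat are then sequenced. The level of a cytosine is the percentage of reads with C among reads with C or T, and a plant's level in a context is the plain average over its cytosines. SDG2-ZF is the catalytic domain of the histone H3K4 methyltransferase SDG2 fused to the zinc finger ZF108, which binds the FWA promoter, expressed from the UBQ10 promoter. It was examined in Col-0 (8 lines), in the triple mutant ros1 dml2 dml3, called rdd (8 lines), and in rdr6 (2 plants), a mutant used against transgene silencing. SDG2cd(H1866K)-ZF carries a change in the catalytic domain (4 plants, Col-0 background). SunTag-SDG2 recruits SDG2 through dCas9 and an array of peptides, in WT (2 plants) and rdr6 (2 plants). dCAS9-MQ1 carries a variant of the bacterial CG methyltransferase MQ1, alone or joined to the TRB-interacting protein TRBIP1 (TRBIP1-dCAS9-MQ1), with 4 plants each, which the study's methods place in fwa rdr6. The untransformed plants were rdd (2), rdr6 (2), the unmethylated epiallele fwa (3), fwa rdr6 (1) and Col-0 (3). Transgenic plants are independent lines or plants of 1 construct, and where the labels do not say that plants were independent transformants, p-values measure the spread between these plants alone. A bulk leaf sample cannot tell fewer cells with methylation from less methylation per cell.

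Because the cytosines of 1 copy are read on the same molecules, they are not replicates of each other, and plants were the unit of each test. The 41 cytosines fall in exon 1 of FWA, in its 5′ untranslated region (12), in intron 1 (10), in exon 2, also untranslated (11), in intron 2 (7) and just upstream of the annotated start (1). The copies aligned over 128 bases, of which 122 were identical (95.3%), with 19 pairs of measured cytosines at matched places. Of these pairs 17 were CHH in both copies. In the others a CHH cytosine of the upstream copy was matched with CHG 13038583 or with the CG cytosine 13038582.

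The 3 CHG cytosines differ in their triplet and so each is shown with its flanks (minus strand, 5′ to 3′, RefSeq sequence of TAIR10.1), the triplet in capitals. The last line is the matched place of the third in the upstream copy, where the context is CHH.
CHG 13038491: tctgattgtCAGtatcccac
CHG 13038499: aacaataatCTGattgtcag
CHG 13038583: aagcaaaaaCCGtaaagcgg
partner of CHG 13038583: aagcaaaaaCCCtagagcgg
These windows are chr4:13038481-13038500, chr4:13038489-13038508, chr4:13038573-13038592 and chr4:13038362-13038381 on the minus strand of TAIR10.1.

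Libraries formed 2 sets of unlike depth. The first set (39 libraries) had a median of 7461 to 49381 reads per member cytosine, with no member under 2461 reads. The second set (8 libraries, namely 2 Col-0, 2 fwa and the 4 SDG2cd(H1866K)-ZF plants) had 310772 to 678125, with none under 46630. At this depth the widest 95% Wilson interval of any member in any library ran from 16.0 to 18.1%, around 17.0% at 5116 reads, so counting error was small beside the differences between plants. These intervals cover counting error only, since PCR copies of a molecule could not be told from other molecules.

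Col-0 plants carried a low level of non-CG methylation that was very unequal among cytosines, and fwa plants carried almost none. CHH methylation averaged 0.113 ± 0.0185% in fwa plants and 5.76 ± 1.41% in Col-0 plants, and CHG methylation 0.0911 ± 0.0139% and 13.1 ± 1.48% (SD, n = 3 each). At the CAG cytosine 13038491 the level was 0.165, 0.128 and 0.122% in the fwa plants and 24.1, 27.1 and 29.9% in the Col-0 plants. At the CTA cytosine 13038428, the highest CHH cytosine, it was 0.173, 0.130 and 0.210% in the fwa plants and 16.8, 17.9 and 25.5% in the Col-0 plants. No cytosine of the 41 overlapped between fwa and Col-0, with each lower in fwa, against 79.2% of all 101 cytosines. With 3 plants a group the exact test allows no p below 0.1, so this is a description. The fwa level is the background of the assay for the plants below.

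The other CHG cytosines were much lower in Col-0 than 13038491. The CTG cytosine 13038499 was at 4.17, 4.22 and 5.56%, and the CCG cytosine 13038583 at 6.50, 8.51 and 8.10%. A change of context at 1 matched place went with a different level: the CCG cytosine 13038583 averaged 7.70% in Col-0 plants and its CCC partner 13038372 averaged 1.10%, and the downstream member of this pair was higher in 45 of the 45 labelled plants.

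SDG2-ZF lines in Col-0 had a lower mean CHG level, which rested mostly on the CAG cytosine. Their CHH levels, and those at the other CHG cytosines, ranged from near the fwa background to above Col-0. CHG averaged 5.11 ± 4.37% in SDG2-ZF lines (n = 8) and 13.1 ± 1.48% in Col-0 (n = 3), with each of the 8 lines below each Col-0 plant. CHH averaged 4.86 ± 4.41% in SDG2-ZF lines and 5.76 ± 1.41% in Col-0, with 5 lines below and 3 lines above all Col-0 plants. By comparison, the 11 CG cytosines of the same copies averaged 12.6 ± 11.6% in the lines and 86.0% in Col-0.

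**Figure D1:**
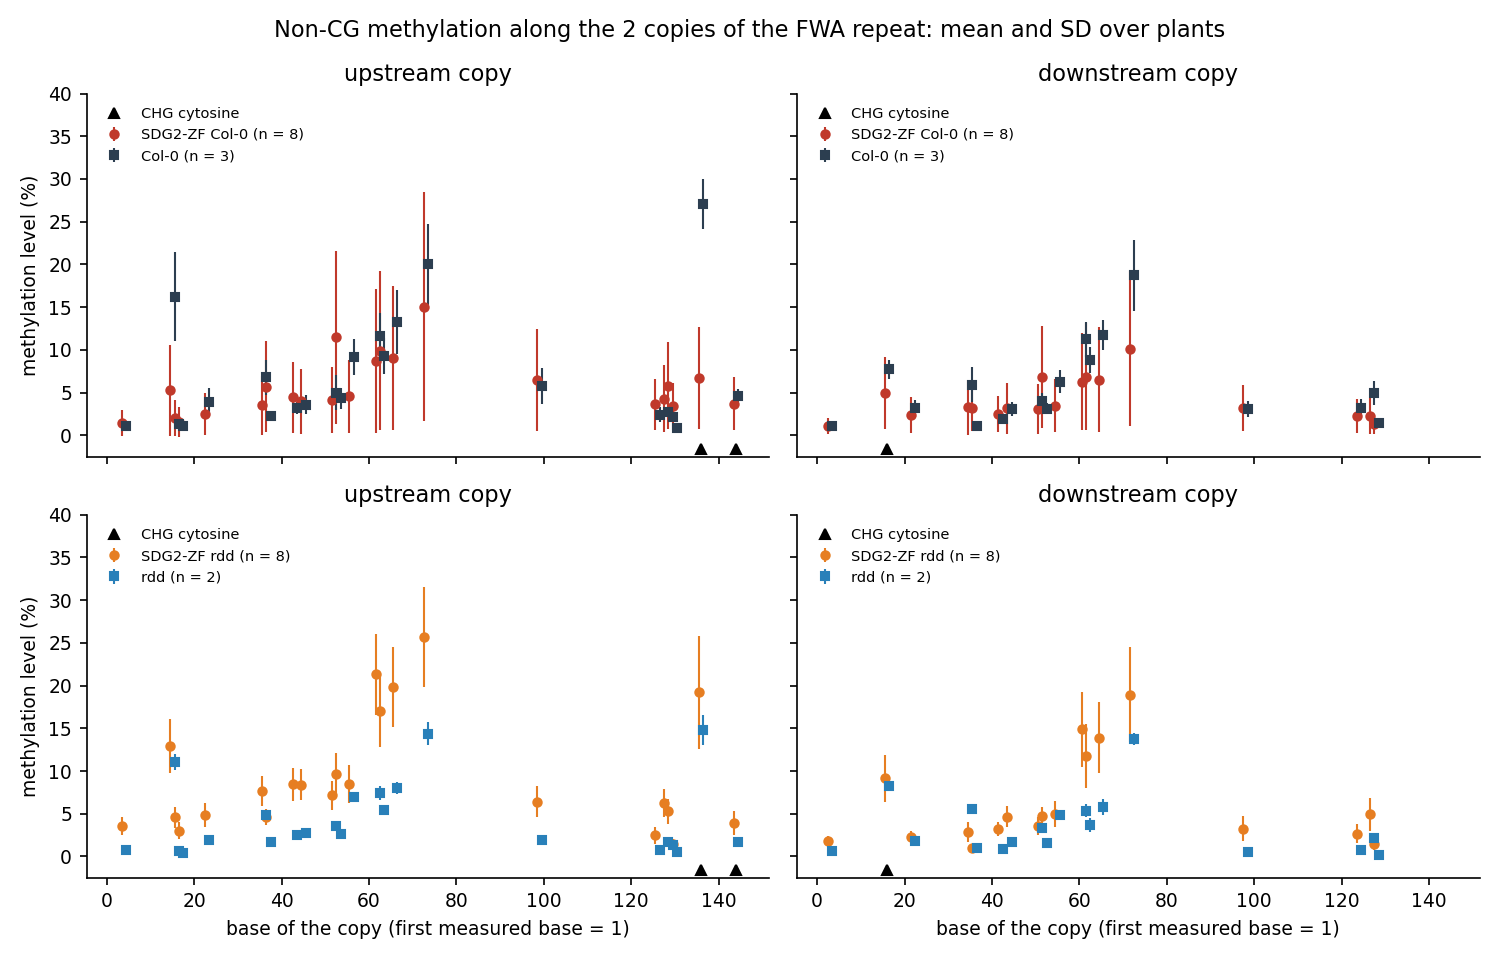
Methylation level (%) of each non-CG cytosine along the upstream copy (left) and the downstream copy (right), by base of the copy, with the mean (symbol) and SD (bar) over plants, groups drawn side by side. Triangles mark CHG cytosines. In the upper panels SDG2-ZF lines lie far below Col-0 at CHG 13038491 (6.67 against 27.1%), and in the lower panels SDG2-ZF rdd lines lie above rdd at most cytosines.

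The CAG cytosine 13038491 was at 5.12, 0.466, 2.43, 5.98, 0.148, 12.7, 9.66 and 16.8% in SDG2-ZF lines 5, 6, 7, 9, 12, 13, 14 and 15, against 24.1, 27.1 and 29.9% in Col-0. No line reached the lowest Col-0 plant. It fell by 20.4 percentage points (adjusted p = 0.0340, two-sided exact permutation test over plants, Benjamini-Hochberg over 101 cytosines, called at an adjusted p under 0.05). It was the only cytosine of the 41 called lower, against 16.8% of all 101, and none was called higher, against 0.99%. Member means were below Col-0 at 22 cytosines and above it at 19. A quasi-binomial model of the C and T counts called 3 cytosines lower (19.8% of all 101), namely 13038491 and the CTA cytosines 13038370 and 13038694. Without any of the 3 Col-0 plants the exact test called none, since with 8 lines and 2 plants it allows no p below 0.0222.

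The CTA cytosine 13038370 had the second largest difference. It was at 3.51, 0.182, 1.65, 2.97, 0.0925, 13.1, 7.95 and 12.6% in the lines in the same order, against 11.6, 15.2 and 21.9% in Col-0, and missed the threshold (adjusted p = 0.0967, exact permutation test). The difference in mean CHH level had no fixed direction: it was -0.90 percentage points with all plants, 0.27 with the Col-0 plant of the first library set alone and 0.15 as a median over cytosines.

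CHH levels of SDG2-ZF lines followed the CG level that remained in each line. CHH averaged 3.36, 0.281, 2.04, 4.08, 0.148, 12.6, 7.76 and 8.58% in lines 5, 6, 7, 9, 12, 13, 14 and 15, and CG averaged 7.58, 1.07, 4.02, 10.8, 1.26, 25.4, 18.3 and 32.2% in the same lines. Lines 6 and 12 were the lowest, with CHG at 0.260 and 0.111%, against fwa means of 0.0911% (CHG), 0.113% (CHH) and 0.118% (CG). Over the 8 lines, the level of each cytosine was correlated with the mean CG level at 41 of 41 cytosines (two-sided exact test over all pairings, Benjamini-Hochberg over 80 non-CG cytosines), against 67.5% of those 80. Pearson's r lay between 0.75 and 1.00 with a median of 0.90. It was highest at CHG 13038491 (r = 1.00, Spearman's rho = 0.98) and lowest at 13038570, a CTC cytosine (r = 0.75, rho = 0.90, adjusted p = 0.0401, exact permutation test). Without the lines farthest from the median CG level, lines 13 and 15, r lay between 0.97 and 1.00, and leaving out any single line gave 40 or 41 calls. The mean CHG level gave r = 0.99 and rho = 0.98, and the mean CHH level r = 0.91 and rho = 0.95. The reads of all contexts come from the same amplicons.

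Per unit of CG methylation, most of these lines carried more CHH than Col-0 plants. As a percentage of the CG level, the CHH level was 36.2% on average in SDG2-ZF lines, with a range of 11.8 to 50.7%, and 5.24, 6.44 and 8.42% in Col-0 plants. The ratio is uncertain where both levels are near background. With the mean of the fwa plants taken off both levels, a check added after seeing the data, it was 17.6% in line 6, 3.06% in line 12, 26.4 to 49.5% in the other lines, and 5.12, 6.31 and 8.30% in Col-0 plants. All lines except 12 were then above the Col-0 plants. With nothing taken off, the ratio was also high in some other plants with low CG. It was 33.0% in the fwa rdr6 library, which has no SDG2 transgene, and 23.97% in SunTag-SDG2 WT plant 2. In SunTag-SDG2 rdr6 plants it was 14.3 and 12.2%. It was below the Col-0 plants in SDG2-ZF rdr6 plants (3.91 and 3.00%). The same held in dCAS9-MQ1 plants 2, 3 and 4 (3.33, 2.95 and 4.10%). In region 1, a stretch of the same locus outside the repeat with 19 CHH cytosines, CHH averaged 1.20 to 14.6% in SDG2-ZF lines and 3.44 to 4.81% in Col-0 plants.

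**Figure D2:**
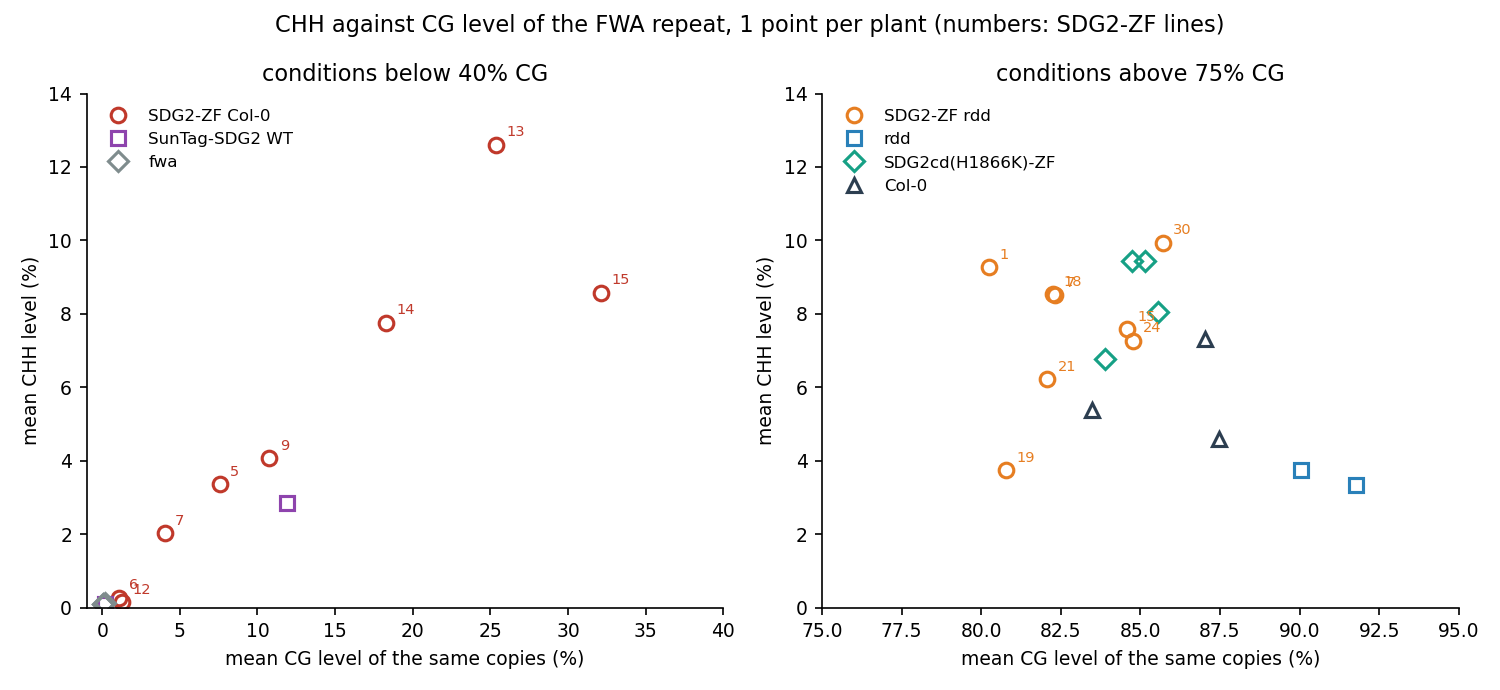
Mean CHH level (%) against mean CG level (%) of the same copies, 1 point per plant, with numbers naming SDG2-ZF lines, for conditions with low CG (left) and high CG (right). In SDG2-ZF Col-0 lines the points climb together (r = 0.91), whereas SDG2-ZF rdd lines spread from 3.75 to 9.94% CHH within a narrow CG range.

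In rdd, SDG2-ZF lines had higher CHH levels than untransformed rdd plants at most cytosines. The CG level was high in both groups, but lower in the lines. CHH averaged 7.64 ± 1.96% in SDG2-ZF rdd lines (n = 8) and 3.55 ± 0.30% in rdd plants (n = 2), and CHG 10.7 ± 3.55% and 8.22 ± 0.73%. CG averaged 82.8% in the lines and 90.9% in rdd, with all 8 lines below both rdd plants. The same held in each copy, at 79.8 and 89.7% upstream and 85.4 and 91.9% downstream. CHH was 9.27, 8.51, 7.59, 8.53, 3.75, 6.23, 7.28 and 9.94% in lines 1, 7, 15, 18, 19, 21, 24 and 30, against 3.76 and 3.34% in rdd. Line 19 lay between the rdd plants and all other lines above them. Member means were higher in the lines at 39 of 41 cytosines.

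The largest difference in rdd was at the CTT cytosine 13038417 of the upstream copy. It was at 23.1, 23.7, 21.8, 24.4, 11.5, 17.6, 21.8 and 26.6% in SDG2-ZF rdd lines 1, 7, 15, 18, 19, 21, 24 and 30, against 8.02 and 6.88% in rdd plants. The groups did not overlap there. With 8 lines against 2 plants the smallest p is 0.0222, and the smallest adjusted p was 0.0510, so the exact permutation test called 0 of the 41 cytosines (0% of all 101), although 27 had an unadjusted p under 0.05 (51.5% of all 101). At 25 cytosines all lines were above both rdd plants, against 42.6% of all 101. The quasi-binomial model called 20 cytosines higher (33.7% of all 101). Without line 19 the exact test called 31 higher, against 46.5%, and 1 lower, against 10.9%. Line 19 had the lowest CHG and CHH levels of these lines, and its CG level of 80.8% was within their range of 80.2 to 85.7%.

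A single cytosine of the 41 non-CG members went the other way without overlap, against 11.9% of all 101. This was the CAA cytosine 13038602 of the downstream copy, named because of its values, with 2.76, 3.19, 3.90, 2.51, 1.07, 2.50, 1.99 and 4.83% in the lines, against 5.85 and 5.16% in rdd plants. Over SDG2-ZF rdd lines, the levels were not correlated with CG beyond the threshold at any cytosine (0 of 41 called, 0% of 80, and 0 at an unadjusted p under 0.05, exact permutation test and also by Spearman's rho), with r between -0.41 and 0.63.

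Between the construct lines of both backgrounds, mean CHG and CHH levels were lower in the Col-0 lines, with overlap between the groups in each. CHG averaged 5.11 ± 4.37% in SDG2-ZF Col-0 lines and 10.7 ± 3.55% in SDG2-ZF rdd lines, and CHH 4.86 ± 4.41% and 7.64 ± 1.96% (n = 8 each). Member means were lower in the Col-0 lines at 31 of the 41 cytosines and higher at 10. The exact permutation test called 8 of the 41 lower in Col-0 lines, 1 CHG and 7 CHH. This was a smaller share than the 26.7% of all 101. The lowest adjusted p was 0.0107, at CHG 13038491, which averaged 6.67% in the Col-0 lines and 19.2% in the rdd lines. The CTT cytosines 13038417 (8.68 and 21.3%) and 13038628 (6.29 and 14.9%), which are partners in the 2 copies, were both called. All 5 CCA cytosines had higher means in the Col-0 lines, and none of them passed. Calls depended on single lines: there were 23 without Col-0 line 13 (45.5% of all 101), 13 without rdd line 19 (34.7%), and 2 to 4 lower without any of Col-0 lines 5, 6, 7, 9 and 12 or rdd lines 1, 7, 15, 18, 24 and 30 (18.8 to 21.8% of all 101). Without Col-0 line 6 or 12, 1 was called higher besides.

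The difference between backgrounds was also tested after the mean of the untransformed control was subtracted, with control means taken as fixed. The change with SDG2-ZF was lower in Col-0 than in rdd at 25 cytosines, 2 CHG and 23 CHH, against 47.5% of all 101, and higher at none. At CHG 13038491 the change was -20.4 percentage points in Col-0 and 4.42 in rdd (adjusted p = 0.000923, exact permutation of the background over 16 lines). At 13038417 it was -2.92 in Col-0 and 13.9 in rdd (adjusted p = 0.00327, exact permutation test). The spread of the 3 Col-0 and 2 rdd plants is not in this test, and a quasi-binomial model that includes it called 1 cytosine lower, against 2.97% of all 101.

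The rdd plants themselves had less non-CG methylation than Col-0, with 1 exception. CHG was 8.73 and 7.70% in rdd plants against 11.6, 13.3 and 14.5% in Col-0, and CHH was 3.76 and 3.34% against 4.58, 5.37 and 7.32%. Groups did not overlap at 31 of 41 cytosines, all lower in rdd, against 51.5% of all 101. The largest difference was again at 13038491, with 16.0 and 13.5% in rdd plants. The CCG cytosine 13038583 alone had a higher mean in rdd (8.20 against 7.70%). With 2 plants against 3 no p can be below 0.1. Both rdd plants are of the first library set, whose Col-0 plant had 11.6% CHG and 4.58% CHH, still above them.

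Non-CG levels were not lower with the H1866K construct than in Col-0. CHG averaged 16.3 ± 1.17% in SDG2cd(H1866K)-ZF plants (n = 4) and 13.1 ± 1.48% in Col-0 (n = 3), and CHH 8.43 ± 1.29% and 5.76 ± 1.41%. CHG was 16.1, 15.0, 17.9 and 16.1% in the 4 plants, and CHH was 8.05, 6.77, 9.45 and 9.44%. CHG levels did not overlap with those of Col-0, and CHH levels did. The means of all 41 cytosines were higher than in Col-0. The exact permutation test and the quasi-binomial model each called 0 (0% of all 101), with 7 at an unadjusted p under 0.05 (6.93% of all 101) and 9 higher without overlap (8.91%), among them CHG 13038491 (32.2, 30.9, 36.4 and 32.5%). All 4 plants belong to the deeper library set, and against its 2 Col-0 plants alone the mean difference was 2.36 percentage points in CHG and 2.08 in CHH.

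Against the H1866K plants, SDG2-ZF lines in Col-0 were lower at 9 cytosines, 1 CHG and 8 CHH (28.7% of all 101, exact permutation test). CHG 13038491 averaged 6.67% in SDG2-ZF lines and 33.0% in H1866K plants, and the CTA cytosine 13038370 averaged 5.26 and 22.8% (adjusted p = 0.00972 for each, exact permutation test). The other called cytosines included the CTA cytosines of the downstream copy, 13038639 and 13038694. The quasi-binomial model called 18 (36.6% of all 101). There were 19 calls without SDG2-ZF line 13 (38.6%), 5 without any of lines 5, 6 and 7 (22.8%), and 2 without H1866K plant 3 or 4 (18.8%). The construct groups come from different library sets, so that set and construct cannot be told apart here.

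In rdr6 and with SunTag-SDG2, non-CG methylation of the repeat was at or near the fwa background in 5 of 6 plants. CHG was 0.146 and 0.126% in SDG2-ZF rdr6 plants and 0.192 and 0.336% in SunTag-SDG2 rdr6 plants, against 13.6 and 15.0% in rdr6. CHH was 0.148 and 0.139% in SDG2-ZF rdr6 and 0.146 and 0.220% in SunTag-SDG2 rdr6, against 5.54 and 4.87% in rdr6. No cytosine overlapped in either comparison, 41 of 41 being lower, against 71.3% of all 101 for SDG2-ZF and 76.2% for SunTag-SDG2. The smallest p that 2 plants against 2 allow is 0.333. CG in the SDG2-ZF rdr6 plants was 3.79 and 4.62%, close to the 4.02% of SDG2-ZF Col-0 line 7, in which CHH was 2.04%.

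The SunTag-SDG2 WT plants differed from each other. Plant 1 had 0.0634% CHG and 0.105% CHH, and plant 2 had 3.71% CHG and 2.85% CHH, with 10.4% at 13038428. All 41 means were below those of Col-0, and 28 cytosines did not overlap (54.5% of all 101), with no p below 0.1 possible. Untransformed rdr6 plants mostly overlapped with Col-0: 4 cytosines were lower without overlap, against 8.91% of all 101, 34 of the 41 means were lower, and CHG 13038491 was at 29.6 and 33.3%.

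**Figure D3:**
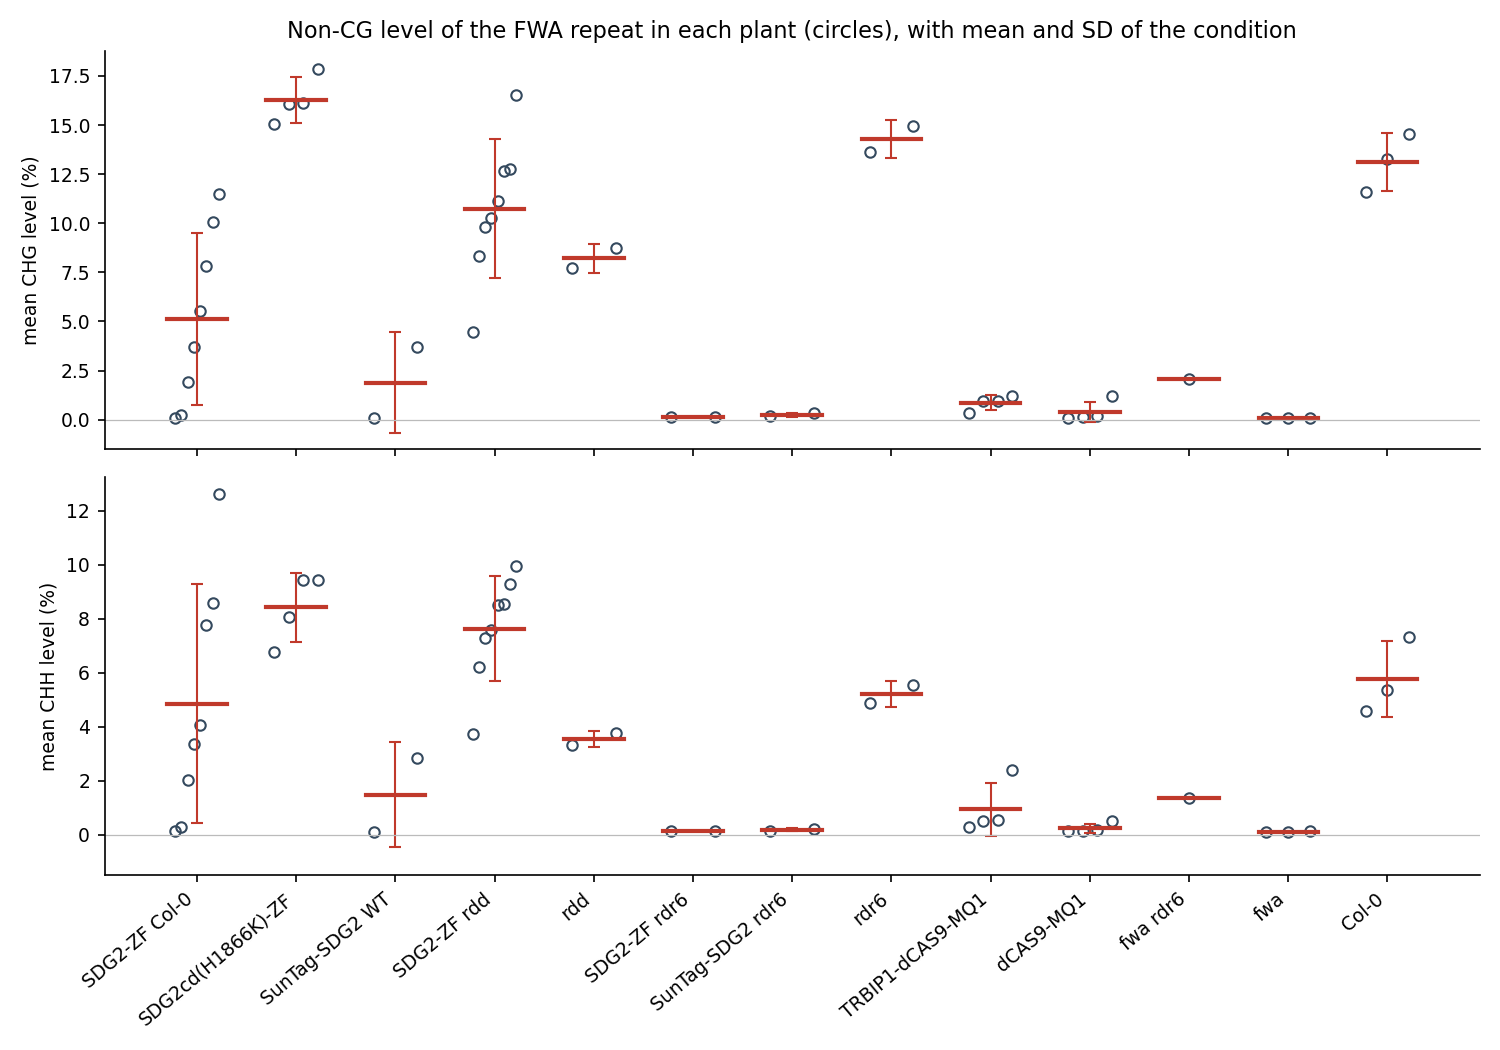
Mean CHG level (top, %) and mean CHH level (bottom, %) of each plant (circles), with the mean and SD of its condition (bars). SDG2-ZF Col-0 lines run from 0.148 to 12.6% CHH, while SDG2-ZF rdr6, SunTag-SDG2 rdr6 and fwa plants lie near 0.

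In plants with MQ1, a CG methyltransferase, mean non-CG levels of the repeat were at most 2.40%, also where CG methylation was high, and differed between plants. In TRBIP1-dCAS9-MQ1 plants CG was 51.0, 54.6, 42.0 and 43.5%, CHG was 0.977, 0.948, 1.21 and 0.329%, and CHH was 0.550, 0.522, 2.40 and 0.269%. In dCAS9-MQ1 plants CG was 38.3, 3.83, 6.07 and 2.93%, CHG was 1.19, 0.146, 0.168 and 0.0929%, and CHH was 0.488, 0.128, 0.179 and 0.120%. CHH overlapped between the constructs through dCAS9-MQ1 plant 1, the plant with the highest CG of its group.

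The means of 40 of 41 cytosines were higher with TRBIP1 than without, and 5 did not overlap (10.9% of all 101), all in the upstream copy. The largest of these 5 differences was at 13038417, with 0.591, 0.678, 6.29 and 0.367% in TRBIP1-dCAS9-MQ1 plants and 0.294, 0.0576, 0.139 and 0.0725% in dCAS9-MQ1 plants. Plant 3 was far above the rest. The exact permutation test and the quasi-binomial model each called 0 (0% of all 101), with 5 at an unadjusted p under 0.05 (11.9%). The mean CHH difference was 0.71 percentage points, and 0.22 without TRBIP1-dCAS9-MQ1 plant 3.

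Set against fwa, member means were mostly higher at low levels, but non-overlap was no more frequent among members than among all 101 cytosines. TRBIP1-dCAS9-MQ1 plants had higher means at 41 of 41 cytosines, 28 of them without overlap (68.3% of all 101). The exact permutation test called 0 (0%), with 0 members at an unadjusted p under 0.05 (29.7% of all 101), and the quasi-binomial model called 31 higher (73.3%). dCAS9-MQ1 plants had higher means at 40 of 41, with 7 not overlapping (45.5% of all 101). The exact permutation test called 0 members (0% of all 101), with 0 members at an unadjusted p under 0.05 (4.95% of all 101), and the model also called 0 members, against 35.6% of all 101 called higher. The fwa plants do not carry rdr6. The only fwa rdr6 library had 2.06% CHG, 1.38% CHH and 4.17% CG, so its CHH level was above all dCAS9-MQ1 plants and above 3 of 4 TRBIP1-dCAS9-MQ1 plants.

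The order of the CHG cytosines varied among MQ1 plants. The CCG cytosine 13038583 was at 1.67, 1.80, 1.51 and 0.529% in TRBIP1-dCAS9-MQ1 plants, and the CAG cytosine 13038491 at 1.04, 0.907, 1.84 and 0.383%. CCG was thus above CAG in 3 of 4 plants, and also in dCAS9-MQ1 plant 1 (1.86 and 1.41%). In dCAS9-MQ1 plants 2, 3 and 4, CAG was above CCG, as in each Col-0 plant, at levels of 0.274% or less. CCG was above CAG in both SunTag-SDG2 rdr6 plants as well, at 0.285 and 0.431% against 0.214 and 0.323%.

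Among CHH cytosines, mean levels differed between triplets, but single cytosines of different triplets overlapped widely. In Col-0, cytosine means ran from 4.95 to 20.03% in CTA, 2.40 to 13.3% in CAA and 1.95 to 11.6% in CTT. They ran from 1.04 to 4.32% in CCA. The order of the triplet means was flatter in SDG2-ZF lines than in untransformed Col-0 and rdd, and also in some plants without an SDG2 transgene. The grouping by triplet was chosen after the values were seen, and the values are given as a description. CTA (4 cytosines) averaged 8.17 ± 7.42% in SDG2-ZF Col-0 lines and 15.0 ± 3.83% in Col-0, whereas CCA (5 cytosines) averaged 6.61 ± 5.83% and 2.57 ± 0.50%. All 4 CTA cytosines and 11 of 12 CAA cytosines had lower means in the lines than in Col-0, and all 5 CCA cytosines had higher means. At the CCA cytosine 13038408 the lines 5, 6, 7, 9, 12, 13, 14 and 15 had 7.48, 0.616, 6.10, 10.6, 0.185, 29.5, 18.9 and 18.3%, against 3.39, 3.89 and 5.68% in Col-0. All lines except 6 and 12 were above all Col-0 plants there. None of these CCA cytosines passed the exact permutation test (adjusted p = 0.586 at 13038408).

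The ratio of the CCA to the CTA level was 0.62 to 1.01 in SDG2-ZF Col-0 lines and 0.16 to 0.19 in Col-0 plants. The levels of lines 6 and 12, whose CHH averaged 0.281 and 0.148%, add little to this range. It was 0.29 to 0.39 in SDG2-ZF rdd lines against 0.15 to 0.17 in rdd plants, and 0.17 to 0.19 in SDG2cd(H1866K)-ZF plants. SunTag-SDG2 WT plant 2 had 0.47. Among plants without an SDG2 transgene, TRBIP1-dCAS9-MQ1 plant 3 (CHH 2.40%) had 0.52 and the fwa rdr6 library (CHH 1.38%) had 0.65. The shape of the profile over the 38 CHH cytosines went the same way: its correlation with the mean Col-0 profile was r = 0.739 for the mean of SDG2-ZF Col-0 lines, 0.899 for SDG2-ZF rdd, 0.967 for rdd, 0.994 for rdr6 and 0.995 for SDG2cd(H1866K)-ZF. It was 0.665 for fwa rdr6, 0.829 for TRBIP1-dCAS9-MQ1, 0.628 for dCAS9-MQ1, 0.813 for SunTag-SDG2 WT, 0.684 for SunTag-SDG2 rdr6, 0.102 for SDG2-ZF rdr6 and 0.293 for fwa, all groups with low CHH levels. These r are across cytosines that share amplicons, and no test is attached to them. For whole-genome libraries the study's methods exclude reads with a run of consecutive methylated CHH cytosines. Whether this was done for the amplicons is not given in the sources used here, and its effect on CHH levels was not tested.

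**Figure D4:**
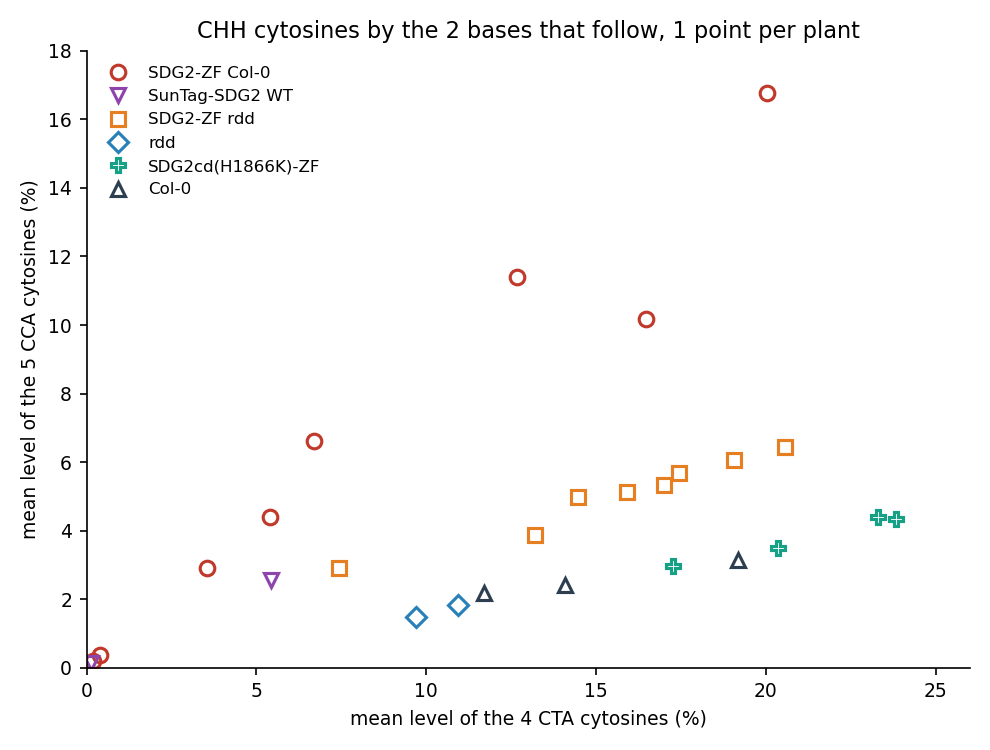
Mean level of the 5 CCA cytosines (%) against that of the 4 CTA cytosines (%), 1 point per plant. SDG2-ZF Col-0 lines lie above the line of Col-0 and SDG2cd(H1866K)-ZF plants, with CCA at 0.62 to 1.01 of CTA, and SDG2-ZF rdd lines lie between.

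The copies had similar profiles where levels were above background, with the upstream copy higher on average. Over the 17 pairs that are CHH in each copy, the mean was higher upstream in every plant of each of the 13 conditions. It was 6.09 and 3.99% for the upstream and downstream copy in SDG2-ZF Col-0 lines, 9.55 and 5.94% in SDG2-ZF rdd lines, 9.34 and 7.67% in SDG2cd(H1866K)-ZF plants, 3.98 and 3.14% in rdd plants and 6.16 and 5.46% in Col-0 plants. The gap of 3.60 percentage points in SDG2-ZF rdd lines was the largest of the 13 conditions and that in Col-0 was 0.70. At the matched CTA cytosines 13038428 and 13038639, the levels in Col-0 were near equal, at 20.03 and 18.7% on average. In SDG2-ZF Col-0 lines they were 15.0 and 10.1%. In Col-0 means 14 of the 17 pairs were higher upstream. The pairs that went the other way are named for their values. The pair 13038484 (CCA) and 13038694 (CTA) averaged 2.09 and 4.95%, and 13038485 (CCC) and 13038695 (CCT) averaged 0.851 and 1.42%. These differ in triplet. The pair 13038481 and 13038691 is CAA in both copies and averaged 2.40 and 3.23%. Across pairs, the copies correlated with r = 0.95 in SDG2-ZF Col-0 lines, 0.97 in SDG2-ZF rdd lines and 0.97 in Col-0. In fwa and SDG2-ZF rdr6 plants, near background, r was 0.57 and 0.59.

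**Figure D5:**
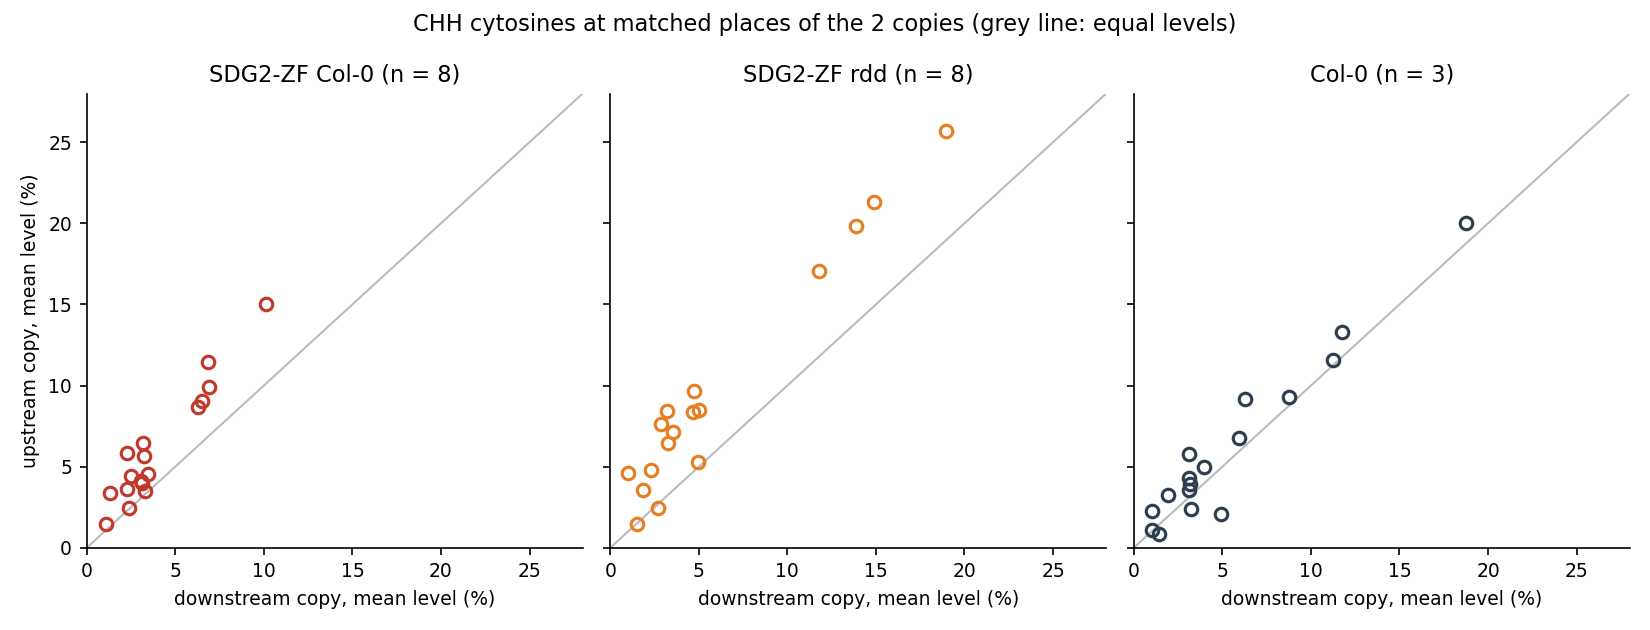
Mean level (%) of each of the 17 CHH pairs in the upstream copy against the downstream copy, 1 circle per pair, averaged over the plants of a condition, with a grey line of equal levels. In SDG2-ZF rdd, 15 of the 17 pairs lie above the line (9.55 against 5.94% on average), and Col-0 pairs lie closer to it on average (6.16 against 5.46%).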

How the data were processed

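BS-PCR-seq files of 47 libraries were analysed, 45 of them in 13 labelled conditions, and 2 whose label gives no background were left out of comparisons. Another 11 samples, from whole-genome sequencing, were not used here. For each cytosine the authors deposited the count of C reads, the total count of C and T reads and their ratio as a fraction, made with BSMAP 2.90 on TAIR10. The study's methods describe mapping and the exclusion of reads with runs of methylated CHH for whole-genome libraries, and none separately for amplicons. The deposited fraction was within 0.0005 of the ratio of the counts. Construct names are those of the labels, and the 2 library sets are the earlier and the later part of the series' samples.

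All 101 cytosines with at least 10 reads in each library matched the TAIR10.1 reference in base, strand and context, and no member lay in a primer. The difference of group means at each was tested by exact permutation of plants, two-sided, adjusted by Benjamini-Hochberg over the 101, threshold 0.05. A quasi-binomial model (0.5 added to C and T), a threshold of 0.01, a minimum of 1000 reads, medians, pooled counts, 1 library set of Col-0 and each plant left out were the alternatives. The tests were tested on simulated data. Named cytosines are the 3 CHG, the 5 highest and 2 lowest CHH in Col-0, the largest differences, cytosines called against most others, and partners of these. Others are said to be named for their values, and 13038408 was too. The members and lists were chosen with earlier results of these data known. A sequence stretch of the repeat is not reported here. Python 3.11.15, numpy 2.4.6, pandas 2.3.3, scipy 1.17.1, statsmodels 0.14.6 and Biopython 1.88 were used.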

Additional observations from a re-analysis of the deposited data

Results flagged for a closer look

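TRBIP1-dCAS9-MQ1 plant 3 stood apart from the other 3 plants of its group in CHH methylation, with a mean of 2.40%, 3.13% in the upstream copy, 1.495% in the downstream copy and a CHH level that was 5.71% of its CG level. Its CHG level of 1.21% did not stand apart. dCAS9-MQ1 plant 1 stood apart from its group in CHG (1.19%), CHH (0.488%) and downstream CHH (0.357%), and its CG level of 38.3% was also the highest of that group. In all, 30 sets of values were examined for a plant far from the rest, and chance marks about 1 in 20.

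The change with SDG2-ZF was lower in Col-0 than in rdd at 25 cytosines, against 47.5% of all 101, by the exact permutation test of the background. That test takes the control means as fixed. The quasi-binomial model, which includes the spread of the controls, called 1 cytosine lower, against 2.97% of all 101.

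For 2 SunTag-SDG2 libraries the label gives no background, and they entered no comparison. The first had 8.46% CHG and 3.99% CHH, and the second 14.2% CHG and 5.95% CHH, each far above the fwa background.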

How the results depend on the processing

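The value or count under an alternative was within the spread between plants, or within 1.5 times, in 474 cases, moved in 54 and reversed in 1. The quasi-binomial model called 3 cytosines lower for SDG2-ZF Col-0 against Col-0 (19.8% of all 101) and 20 higher for SDG2-ZF rdd against rdd (33.7%). It called 4 lower for SDG2-ZF Col-0 against SDG2-ZF rdd (21.8%) and 18 lower against SDG2cd(H1866K)-ZF (36.6%). It called 31 higher for TRBIP1-dCAS9-MQ1 against fwa (73.3%) and 1 lower for the interaction (2.97%). At an adjusted p under 0.01 the counts were 0 for SDG2-ZF Col-0 against Col-0, 0 against SDG2-ZF rdd, 2 against SDG2cd(H1866K)-ZF and 9 for the interaction. The share of all 101 is not given for these counts, which describe only how calls depend on the threshold. Leaving out 1 plant gave 0 to 1 calls for SDG2-ZF Col-0 against Col-0 (0 to 17.8% of all 101) and 0 to 32 for SDG2-ZF rdd against rdd (0 to 57.4%). It gave 2 to 23 for SDG2-ZF Col-0 against SDG2-ZF rdd (20.8 to 47.5%) and 2 to 19 against SDG2cd(H1866K)-ZF (20.8 to 43.6%). For the interaction it gave 20 to 32, for which the share of all 101 is not given. With the fwa level taken off CHH and CG, an alternative chosen after seeing the data, CHH as a percentage of CG averaged 33.6% in SDG2-ZF Col-0 lines and 6.57% in Col-0 plants, against 36.2 and 6.70% without it.

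With 3 CHG cytosines, a median in place of the mean takes the value of another cytosine. The median difference in CHG, in percentage points, was 0.50 for rdd against Col-0, the opposite sign of the mean difference of -4.92, and -2.77 for SDG2-ZF Col-0 against Col-0, -5.53 against SDG2cd(H1866K)-ZF, -7.63 for fwa against Col-0, -0.64 for rdr6 against Col-0, -6.93 for SDG2-ZF rdr6 and -6.79 for SunTag-SDG2 rdr6 against rdr6, and -6.18 for SunTag-SDG2 WT against Col-0. The median difference in CHH was -3.66 for fwa against Col-0, -3.10 for SDG2-ZF rdr6 and -3.07 for SunTag-SDG2 rdr6 against rdr6, and -2.58 for SunTag-SDG2 WT against Col-0. Pooled counts gave -15.2 (CHG) and -5.56 (CHH) for SDG2-ZF rdr6 against rdr6, and -15.1 and -5.52 for SunTag-SDG2 rdr6 against rdr6. With Col-0 of the first set alone, differences were 4.67 (CHG) for SDG2cd(H1866K)-ZF, -3.37 (CHG) and -1.04 (CHH) for rdd, -11.5 (CHG) and -4.47 (CHH) for fwa and 2.71 (CHG) for rdr6. The cause of these shifts was not tested.

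Same-numbered plants deviated together in some pairs and not in others, and the labels give no pairing: the correlation of deviations was 0.76, -0.86, 0.53 and 0.51 for the MQ1 constructs, -0.44 and -0.73 for SDG2cd(H1866K)-ZF and Col-0, -0.03 for SunTag-SDG2 rdr6 and rdr6, and -0.08 and 0.59 for lines 7 and 15 of SDG2-ZF Col-0 and rdd. With the replicate number as a block, 0 cytosines were called for TRBIP1-dCAS9-MQ1 against dCAS9-MQ1, both in the model and in sign flips, whose smallest p is 0.125, and 0 for SDG2cd(H1866K)-ZF against Col-0. No depth limit arose, since a minimum of 1000 reads kept all members.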
